A study of Mus musculus with 6 samples.

Results

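The 10 genes described here encode enzymes that remove reactive oxygen species or conjugate toxic compounds to glutathione, and they are 10 of the 52636 genes in the count table. They are Gstp1, Gsta3 and Gstm1 (glutathione S-transferases), Gpx3 (a secreted glutathione peroxidase), Sod2 and Sod3 (the mitochondrial and the extracellular superoxide dismutase), Nqo1 (a quinone reductase), Hmox1 (haem oxygenase 1), Txnrd1 (the cytosolic thioredoxin reductase) and Prdx1 (a peroxiredoxin). They were chosen by name, with the genotype difference of Gstp1 already known from these samples, so that difference is described without a test. The other members were also chosen with earlier results of these data known. Their counts and tests below therefore do not rest on an independent choice of genes. All 10 gene identifiers were found in the table.

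The cells came from the pigmented epithelium that underlies the photoreceptors (RPE, retinal pigment epithelium) and from the choroid, the vessel layer behind it, of male C57BL/6J mice aged 12 to 16 months, and were grown in RPE medium before sequencing. The genotypes compared were Dram2 wt/wt and Dram2 ko/ko, with 3 samples each, written wt/wt and ko/ko below. Dram2 encodes a lysosomal membrane protein linked to autophagy, and the ko/ko allele is a CRISPR deletion of exon 4 carried by every cell of the animal. Differences between genotypes are log2 fold changes (log2 FC) of Dram2 ko/ko over Dram2 wt/wt from voom-limma, a linear model fitted over all genes on summed counts, written with their standard error (SE). Libraries counted molecules by unique molecular identifiers (UMIs) at the 3′ end of RNA, and levels below are CPM, the UMIs of a gene per 1000000 UMIs, of all cells of 1 type summed within 1 sample.

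Glutathione is a small thiol that donates electrons to peroxidases and is attached by transferases to reactive compounds. Superoxide dismutases turn superoxide into hydrogen peroxide, which glutathione peroxidases, peroxiredoxins and catalase then remove. Many of these genes, among them Nqo1, Hmox1, Txnrd1, Prdx1 and the alpha-class transferases, are known targets of the transcription factor NRF2, whose binding site is called the antioxidant response element. In the eye, the RPE lies under strong light and high oxygen, digests photoreceptor outer segments, and is rich in such enzymes.

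Depth was 112569270 to 122746184 UMIs per wt/wt sample and 96808998 to 111922186 per ko/ko sample, over 25428 cells. Median depth per cell ran from 16453 UMIs in ko/ko replicate 2 (6648 cells) to 47373 UMIs in ko/ko replicate 1 (2140 cells), and was 24042 to 29819 UMIs in the other 4 samples. The authors' annotation holds 8 cell types and 9 fibroblast sub-clusters. The 3 large fibroblast types are Fibroblast (12651 cells), Fibroblast proliferating (6465 cells) and Fibroblast 2 (3019 cells), followed by RPE (1492 cells), Fibroblast-like (1121 cells), the type named Pericyte (308 cells), Endothelial (288 cells) and Myeloid (84 cells, compared between 2 samples and 2). Sample ko/ko replicate 3 was the only sample of batch 2, so the effect of that batch cannot be told apart from that sample. The type named Pericyte carried the Schwann cell genes Ngfr and Sox10, while the pericyte genes Kcnj8, Higd1b and Ndufa4l2 were at 0. The RPE type carried Otx2 and Krt18, but Rpe65, the visual cycle isomerase that defines mature RPE, stayed under 2 CPM in every sample. Dram2 itself was at 33.4, 39.6 and 38.1 CPM in the wt/wt samples and at 30.7, 28.3 and 30.1 CPM in the ko/ko samples (log2 FC −0.30, adjusted p = 0.301), a weak check of the labels because 3′ reads lie outside the deleted exon.

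Gstp1 has near-identical copies in the mouse genome, and the stretch of sequence where they part is shown because it decides which reads can be assigned. Gstp1 (ENSMUSG00000060803) lies on the minus strand of chromosome 19 at 4035407 to 4037985 (GRCm38), Gstp2 lies beside it at 4040285 to 4046023, and a processed pseudogene, Gstp-ps, lies on chromosome 1 at 192073820 to 192074450. The 30 bases below run from position 430 to position 459, counted from 1 at the 5′ end of the Gstp1 transcript, with the last bases that differ in capitals. They are coding, with 29 bases in exon 5 (4036688 to 4036716) and 1 base in exon 6 (at 4035931).
Gstp1: aatatgTcaccCtCatctacaCCaactatg
Gstp2: aatatgGcaccAtGatctacaGAaactatg
Gstp-ps: aatatgGcaccAtGatctacaGAaactatg
The 5 substitutions in this window are T436G, C441A, C443G, C451G and C452A, and they are the same in both copies. Beyond position 452 the 3 transcripts do not differ where they align. The Gstp1 and Gstp2 transcripts are identical over the last 369 bases of Gstp1, 300 of them coding and 69 of them in the 3′ untranslated region, and Gstp-ps is identical over 303 bases (positions 453 to 755). Over the whole alignment Gstp2 differs from Gstp1 at 13 of 707 positions (98.2% identity) and Gstp-ps at 15 of 631 (97.6%). When the last 400 bases of the Gstp1 transcript were cut into words of 31 bases, 91.6% of the words also occurred in a transcript of another gene. A 3′ library reads this end of the RNA, where few words tell the 3 copies apart. How reads that fit more than 1 copy were counted was not tested. Counts listed under Gstp1, Gstp2 and Gstp-ps are therefore uncertain, both as totals and as a split between them.

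The 10 genes were not spread evenly over the cell types. Sod3 was mostly found in Fibroblast 2, Gsta3, Hmox1 and Txnrd1 were highest in RPE, Sod2, Gstm1 and Gstp1 were highest in Fibroblast 2, Nqo1 was highest in proliferating fibroblasts, Gpx3 in Fibroblast, and Prdx1 varied least. These levels are a description with no test, because the types were made by clustering on the same genes. Levels are compared only within a gene, since UMIs at the 3′ end are not scaled to one another across genes.

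**Figure D1:**
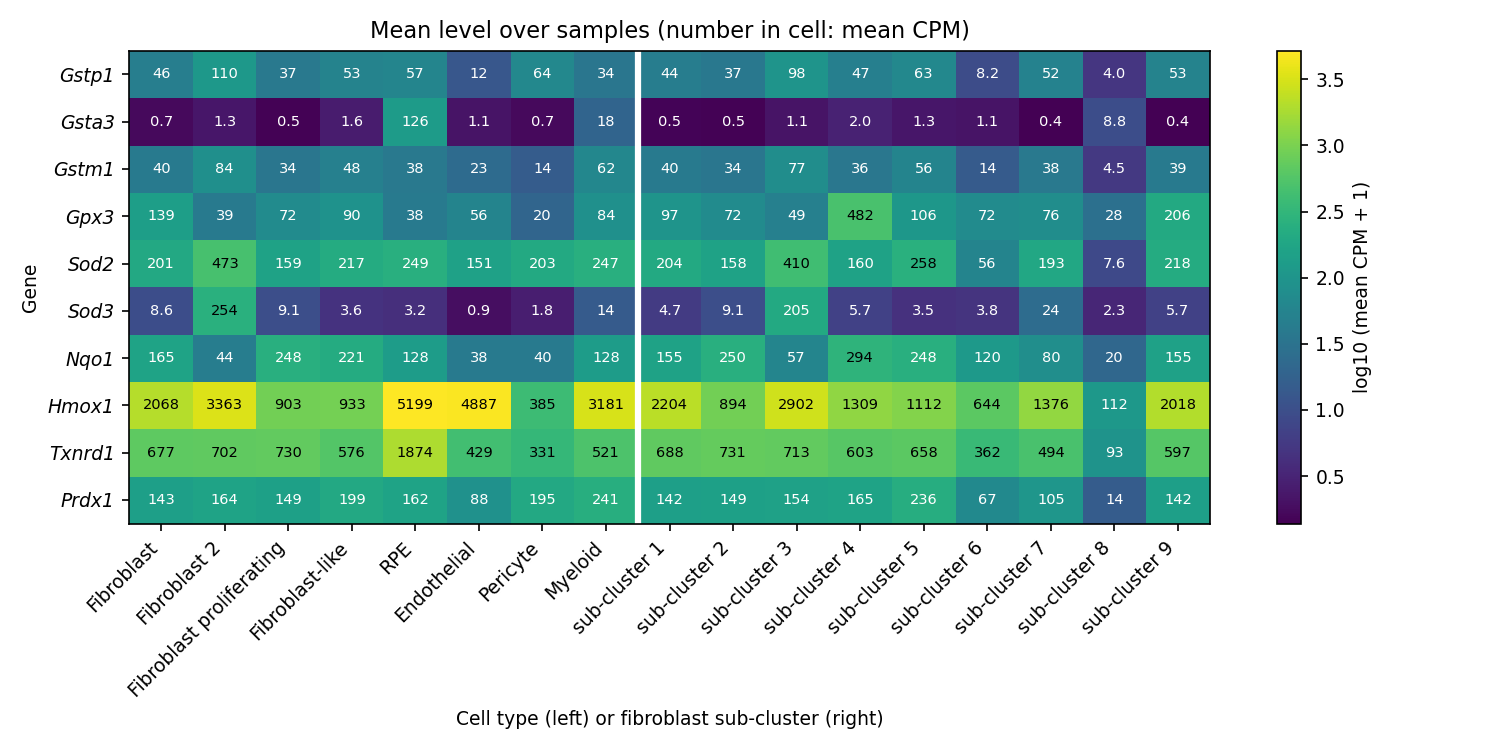
Heat map of the mean level over samples of each of the 10 genes (rows) in the 8 cell types (left columns) and the 9 fibroblast sub-clusters (right columns), coloured by log10(mean CPM + 1) with the mean CPM printed in each cell. Gsta3 stands out in RPE (126), Sod3 in Fibroblast 2 (254) and Gpx3 in sub-cluster 4 (482).

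Among the transferases, Gsta3, an alpha-class enzyme with steroid isomerase activity, was the most restricted. It was at 126 ± 62.1 CPM in RPE (SD, n = 6) and 18.4 ± 1.69 CPM in Myeloid (n = 4), and its mean was at most 1.59 CPM in the other 6 types. The Myeloid sums held only 3 to 10 Gsta3 UMIs each. The RPE and Myeloid values did not overlap. With every cell thinned to 4000 UMIs, 17.1% of RPE cells held a Gsta3 UMI (28.8% before thinning, median depth 23343.5 UMIs) against 0.286% of Fibroblast cells (1.47% before thinning, median depth 26224 UMIs). The share of RPE cells ran from 5.01% to 46.3% between samples. Thinning left out 34 RPE cells and 73 Fibroblast cells.

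Gstm1, a mu-class transferase, was at 83.6 ± 7.20 CPM in Fibroblast 2 and at 14.1 ± 5.53 CPM in the type named Pericyte (SD, n = 6), its highest and lowest type means. Fibroblast 2 was its top type in 6 of 6 samples, although its range there met that of Myeloid (62.5 ± 10.3 CPM, n = 4). Gstp1, the pi-class transferase, was also highest in Fibroblast 2 in 6 of 6 samples, at 151 ± 14.2 CPM over the wt/wt samples and 68.0 ± 10.0 CPM over the ko/ko samples (SD, n = 3 each). Its lowest type was Endothelial, at 17.7 ± 4.45 and 5.91 ± 3.18 CPM, where single samples held as few as 1 UMI of Gstp1. Over samples of both genotypes, the ranges of Gstp1 overlapped between every pair of neighbouring types in this order. Within wt/wt, Fibroblast 2 was at 136 to 164 CPM and the next type, named Pericyte, at 72.5 to 88.7 CPM. Within ko/ko these ranges were 56.4 to 74.2 and 41.3 to 52.7 CPM, so they did not overlap in either genotype.

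Of the superoxide dismutases, Sod3, which is secreted and binds to the extracellular matrix, was mostly found in Fibroblast 2, at 254 ± 123 CPM (SD, n = 6), with means of at most 13.8 CPM in the other types and no overlap with the next. Sod3 was at 143, 342 and 406 CPM in the wt/wt samples of Fibroblast 2 and at 206, 99.7 and 331 CPM in the ko/ko samples, so samples of 1 genotype differed widely. After thinning, 31.7% of Fibroblast 2 cells held a Sod3 UMI (48.8% before, median depth 18539.5 UMIs) against 2.54% of Fibroblast cells (9.19% before), and thinning left out 25 Fibroblast 2 cells. Sod2, the manganese enzyme of mitochondria, was at 473 ± 45.4 CPM in Fibroblast 2, which did not overlap with the next type, RPE, at 249 ± 64.6 CPM. Its means in the other types lay between 150.5 CPM in Endothelial and 246.5 CPM in Myeloid, and neighbours in this order overlapped except Fibroblast (201 ± 17.3 CPM) and Fibroblast proliferating (158 ± 13.3 CPM).

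Hmox1, which breaks haem down to biliverdin, iron and carbon monoxide, had means of 5199 ± 2515 CPM in RPE, 4887 ± 1499.7 CPM in Endothelial, 3363 ± 608 CPM in Fibroblast 2 and 2068 ± 406 CPM in Fibroblast. It was lowest in the type named Pericyte at 385 ± 236 CPM. Neighbouring types overlapped throughout this order, and RPE was the top type in 5 of 6 samples. Txnrd1, which keeps thioredoxin reduced, was at 1874 ± 692 CPM in RPE and between 331 and 730 CPM in the other types, and RPE was its top type in 6 of 6 samples although its range met that of Fibroblast proliferating.

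Nqo1, which reduces quinones by a 2-electron step, followed another order. It was at 248 ± 15.9 CPM in Fibroblast proliferating, 221 ± 23.5 CPM in Fibroblast-like and 165 ± 7.42 CPM in Fibroblast, and at only 44.0 ± 5.43 CPM in Fibroblast 2 (SD, n = 6). Thus Fibroblast 2 was the top fibroblast type for Hmox1, Sod2, Sod3, Gstm1 and Gstp1 and the lowest for Nqo1 and Gpx3 (38.9 CPM). Gpx3, which is exported to plasma and basement membranes, was at 139 ± 48.5 CPM in Fibroblast and 19.6 ± 17.4 CPM in the type named Pericyte, with neighbours overlapping throughout. Prdx1 had means between 88.2 CPM in Endothelial and 241 CPM in Myeloid.

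The fibroblast sub-clusters divided the Fibroblast type further. Sub-cluster 4 (1558 cells, 1543 of them of the Fibroblast type) held Gpx3 at 482 CPM, ranging from 330 to 627 CPM over 6 samples, against means of 27.9 to 206 CPM in the other 8 sub-clusters. Its Gpx3 values were 435, 627 and 548 CPM in the wt/wt samples and 404, 330 and 550 CPM in the ko/ko samples. After thinning, 76.8% of its cells held a Gpx3 UMI (95.6% before, median depth 23469.5 UMIs), against 25.7% of sub-cluster 1 (61.6% before) and 3.58% of the type named Pericyte (12.7% before, median depth 13614 UMIs). Thinning left out 6 cells of sub-cluster 4 and 1 of the type named Pericyte. The mean of Nqo1 was also highest there, at 294 CPM. Its range of 263 to 349 CPM overlapped with those of sub-cluster 2 (227 to 270 CPM) and sub-cluster 5 (211 to 282 CPM). Sod2 (160 CPM) was near its level in sub-cluster 2 (158 CPM) and below that in sub-cluster 1 (204 CPM), with no overlap with the latter. Gstp1 (47.1 CPM) overlapped with both sub-cluster 1 and sub-cluster 2.

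Sub-cluster 3 joined 2964 Fibroblast 2 cells with 811 cells of the Fibroblast type. Nqo1 was at 75.9 to 100.1 CPM over the samples of its Fibroblast cells and 40.0 to 54.3 CPM over those of its Fibroblast 2 cells, and Sod2 at 220.2 to 281 and 417 to 536 CPM, and neither overlapped. Sod3 overlapped, at 35.0 to 124 and 101 to 420 CPM, as did Gstp1 over both genotypes, at 35.5 to 98.1 and 57.0 to 165 CPM. Txnrd1 was alike, at 744 ± 98.6 and 702 ± 46.6 CPM (SD, n = 6). Sod3 in the Fibroblast cells of sub-cluster 3 had a mean of 67.1 CPM, above its mean of 8.61 CPM in the whole Fibroblast type. Sub-cluster 8 (168 cells, compared over 4 samples) had the lowest mean of the 9 sub-clusters for every member except Gsta3. It was also the shallowest, with a median of 3150 UMIs per cell and a median mitochondrial share of 91.1%, whose part in its levels was not tested.

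Gstp1 was lower in ko/ko samples in every cell type. In Fibroblast 2 it was at 164, 155 and 136 CPM in the wt/wt samples and at 74.2, 73.4 and 56.4 CPM in the ko/ko samples, and the groups did not overlap. The ko/ko mean was 44.9% of the wt/wt mean there. The other fibroblast types lay close together, with 48.1% (proliferating), 48.4% (Fibroblast) and 48.7% (Fibroblast-like). Outside the fibroblasts it was 44.2% in RPE, 56.7% in the type named Pericyte, 42.7% in Myeloid and 33.4% in Endothelial. Over all cells the values were 78.5, 67.5 and 53.4 against 38.7, 36.7 and 24.3 CPM. The groups of Gstp1 did not overlap over all cells or in any of these 8 types, and nothing is read from this, since Gstp1 was chosen on this contrast. Every ko/ko value lay below every wt/wt value for 7.33% of all genes over all cells, 7.01% in Fibroblast, 6.60% in Fibroblast 2, 6.52% in the proliferating type, 6.05% in Fibroblast-like, 5.09% in RPE, 6.60% in Endothelial, 5.68% in the type named Pericyte and 19.0% in Myeloid, where 2 samples met 2. Sample ko/ko replicate 3 was the lowest sample in Fibroblast 2, Fibroblast, Fibroblast proliferating and RPE.

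Among sub-clusters, Gstp1 in ko/ko was 46.8%, 48.3%, 46.0%, 48.8% and 51.2% of the wt/wt mean in sub-clusters 1 to 5, and the groups overlapped in sub-clusters 6, 7 and 8. In the fit over all genes the log2 FC of Gstp1 was −1.14 in Fibroblast 2, −1.06 in both Fibroblast and the proliferating type, −1.33 in RPE and −0.998 over all cells. The fitted difference was 0.07 lower on the log2 scale in Fibroblast 2 than in Fibroblast (−0.07, SE 0.07). Leaving out ko/ko replicate 3 gave a Gstp1 log2 FC of −1.01 in Fibroblast 2, −0.86 in Fibroblast and −0.78 in RPE. In Fibroblast 2 the 11 RPE markers summed to 5.97 to 10.4 CPM in wt/wt and 5.48 to 7.03 CPM in ko/ko, with 5 or 6 of them at 0, and the 6 myeloid markers to 8.46 to 11.3 and 7.02 to 9.19 CPM, beside 3341 to 5083 CPM of fibroblast markers over all samples. All of the Gstp1 values come from the contrast that led to the choice of Gstp1 and support nothing beyond it.

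**Figure D2:**
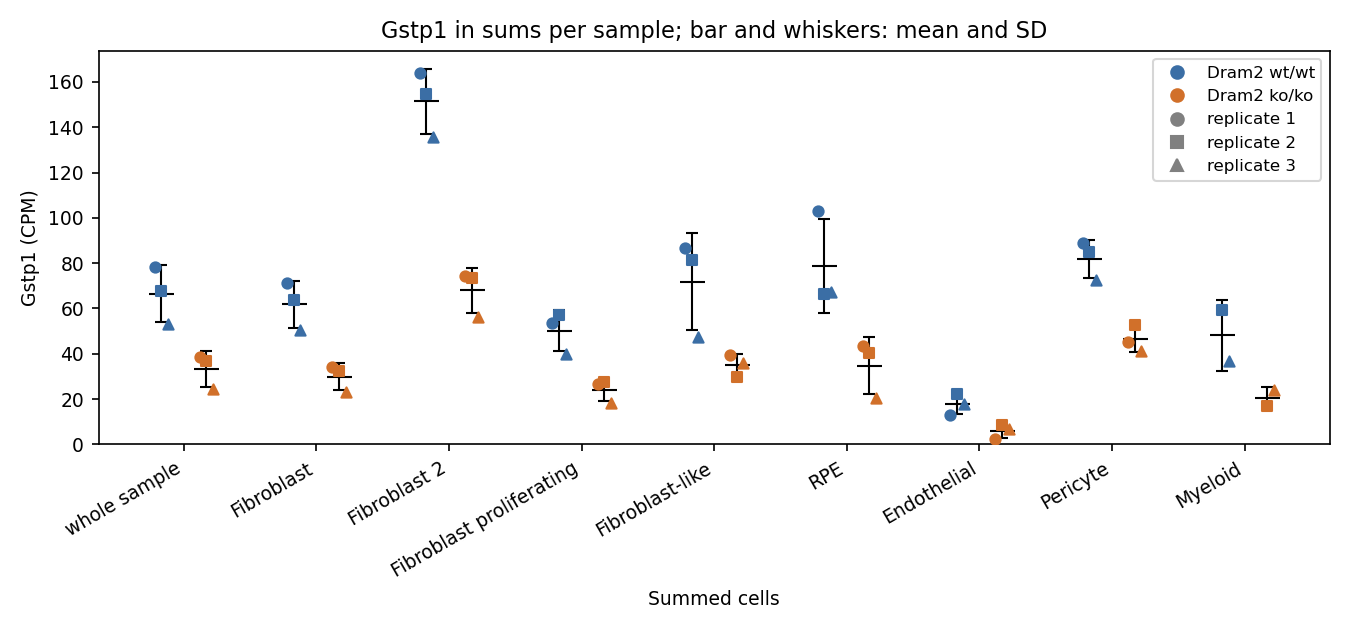
Gstp1 level in CPM over all cells and in each cell type, 1 point per sample with colour for genotype and shape for replicate number, and bars and whiskers for the mean and SD. The ko/ko points lie below the wt/wt points in all 8 types, and both genotypes are highest in Fibroblast 2.

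The pseudogene did not separate the genotypes. Gstp-ps, in Fibroblast 2, was at 79.1, 101 and 85.6 CPM in the wt/wt samples and at 89.3, 78.1 and 63.4 CPM in the ko/ko samples, with overlapping groups and a log2 FC of −0.19 ± 0.14 (SE), with an adjusted p of 0.887. Over all cells the log2 FC of Gstp-ps was −0.06 (adjusted p = 0.97). Gstp2 was at 1.2 CPM or less in every type on average, and Gstp3, a further pi-class gene of the same cluster, at 1.4 CPM or less. Counts listed under the pseudogene were thus of the same order as those of Gstp1, and which of the 3 genes the RNA came from cannot be told apart in these files.

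When the counts of Gstp1, Gstp2 and Gstp-ps were summed, the log2 FC was smaller, at −0.72 in Fibroblast 2, −0.61 in Fibroblast, −0.64 in the proliferating type, −0.64 in RPE and −0.57 over all cells, against −1.14, −1.06, −1.06, −1.33 and −0.998 for Gstp1 alone. The fitted difference of the sum was negative in each of these. These sums rest on the contrast that led to the choice of Gstp1, and the part of shared reads in the difference was not tested.

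**Figure D3:**
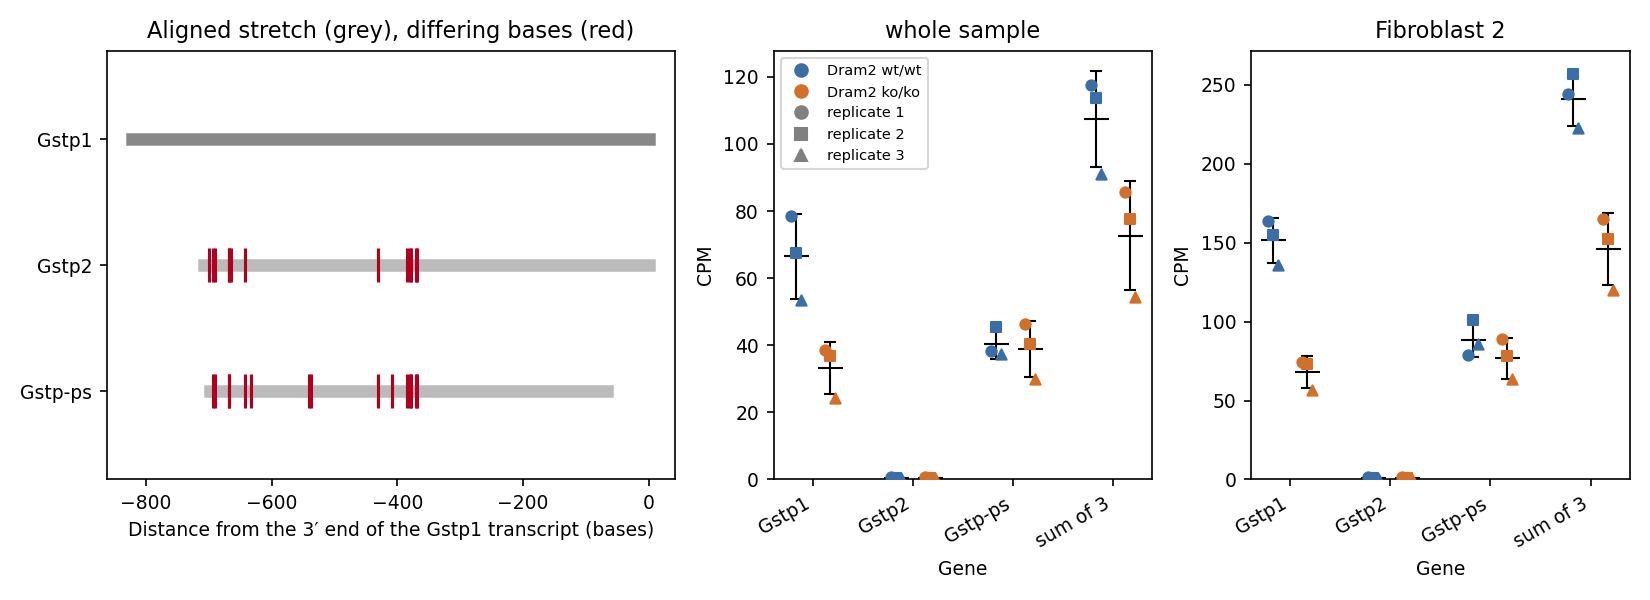
Left, the stretches of Gstp2 and Gstp-ps that align to the Gstp1 transcript (grey) with differing bases in red, by distance in bases from the 3′ end of Gstp1. Middle and right, CPM of Gstp1, Gstp2, Gstp-ps and their sum over all cells and in Fibroblast 2, 1 point per sample with mean and SD, where Gstp1 separates the genotypes in Fibroblast 2 (56.4 to 74.2 against 136 to 164) and Gstp-ps does not (63.4 to 89.3 against 79.1 to 101).

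Genes called between genotypes lay mostly among pseudogenes, a class set by gene type, and among other genes with 5% or more of their 3′ words shared. In Fibroblast 2, 14 of 1505 pseudogenes tested were called, 6 of 811 other genes with 50% or more of their 3′ words shared, 12 of 3257 with 5 to 50% shared and 1 of 9274 with under 5% shared. In Fibroblast proliferating these counts were 73 of 2472, 13 of 1034, 20 of 3688 and 5 of 10876. Every gene called by voom-limma in Fibroblast 2 and in Fibroblast proliferating was lower in ko/ko. In Fibroblast 2, pseudogenes had a median log2 FC of −0.21 with 66.0% of them lower in ko/ko, while genes with under 5% shared had a median of −0.003 with 50.7% lower. With a block for replicate number, which did not pair the samples, the calls over all genes went to 2 in Fibroblast 2 and 0 in Fibroblast proliferating. They were 0 in both without wt/wt replicate 3 or without ko/ko replicate 2. Taken over all its transcripts, Gstp1 shares 47.8% of its 3′ words and is in the class of 5 to 50%, and the part of this sharing in its difference was not tested.

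On the same measure over all transcripts of a gene, the other members share less. Of the 3′ words of Prdx1, 33% occur elsewhere, chiefly in the pseudogenes Gm21399 and Gm7204, of Gstm1 31%, chiefly in Gstm3, and of Sod2 26%, while Nqo1, Hmox1, Sod3 and Txnrd1 share none. Single transcripts varied, with up to 77.6% for Prdx1 and 82.7% for Sod2 and from 8.65% to 100% for Gstp1. Adding the counts of these partners left the Fibroblast 2 log2 FCs at 0.17 for Gstm1, 0.06 for Prdx1 and 0.04 for Sod2.

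None of the 9 members other than Gstp1 passed the test in any cell type. For each comparison the fit covered all genes that passed a filter on low counts, and a gene was called at a Benjamini-Hochberg adjusted p under 0.05 by voom-limma. Called genes made up 0% of 22580 over all cells. Among the fibroblast types they made up 0.00503% of 19886 (Fibroblast), 0.222% of 14882 (Fibroblast 2), 0.624% of 18113 (Fibroblast proliferating) and 0% of 7218 (Fibroblast-like). They made up 0% of 12333 in RPE, 0% of 6682 in Endothelial, 0.0118% of 8454 in the type named Pericyte and 0.0296% of 6747 in Myeloid. Of the 9 other members, 0 were called in each, and edgeR and DESeq2 also called 0. Of all genes, edgeR called 0.00503% in Fibroblast, 0.0739% in Fibroblast 2, 0.342% in the proliferating type, 0.148% in Myeloid and 0% elsewhere. DESeq2 called 1.69% over all cells, 1.61% in Fibroblast, 1.13% in Fibroblast 2, 1.77% in the proliferating type, 0.346% in Fibroblast-like, 0.203% in RPE, 0.195% in Endothelial, 0.260% in the type named Pericyte and 0.163% in Myeloid. Over the 9 comparisons there were 73 tests of a member, and 3 of them had an unadjusted p under 0.05, Gstm1 in Fibroblast and Gpx3 in Endothelial and in Myeloid, beside 4.65% (RPE) to 7.18% (Fibroblast) of all genes under that threshold. Gsta3 and Sod3 were under the filter on low counts in Fibroblast-like, Endothelial, Myeloid and the type named Pericyte.

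**Figure D4:**
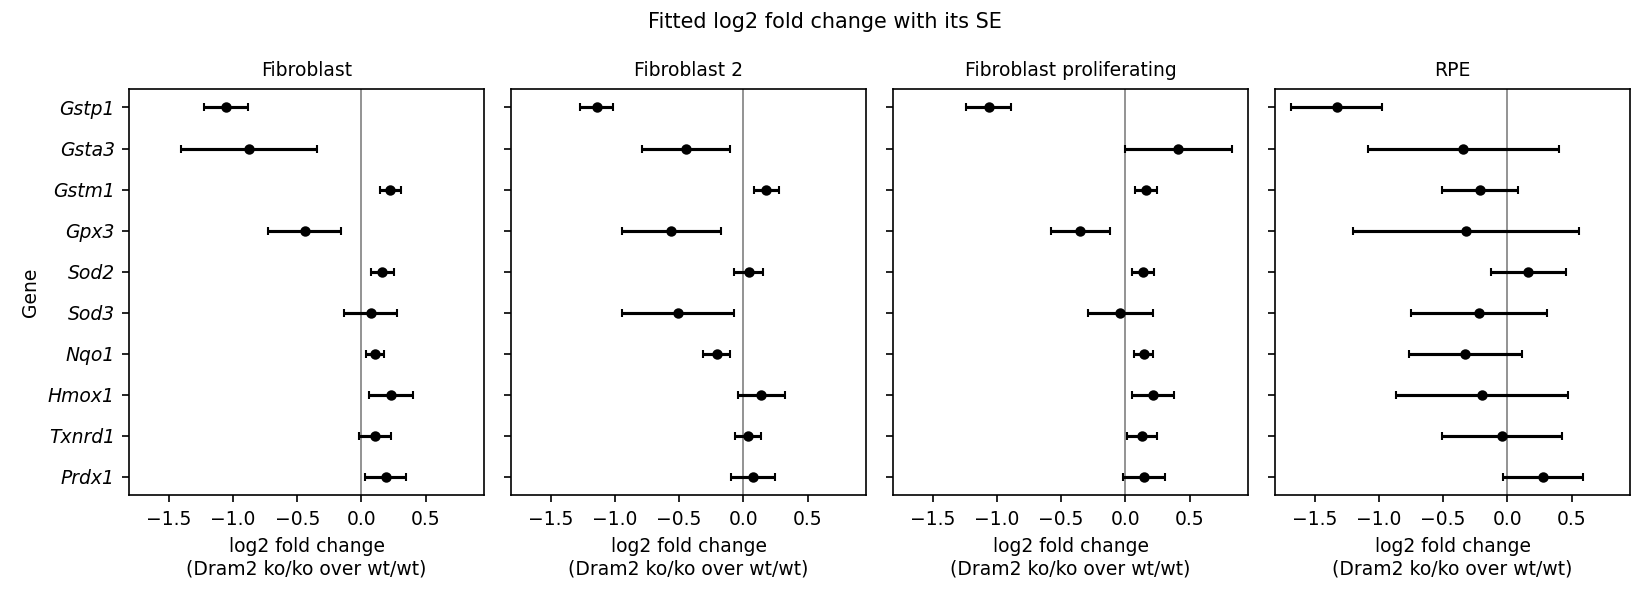
Log2 FC (ko/ko over wt/wt) of each member in Fibroblast, Fibroblast 2, Fibroblast proliferating and RPE, with bars of 1 SE. Gstp1 lies between −1.06 and −1.33, Gpx3 lies below 0 in all 4 panels, and outside RPE the longest bars are those of Gsta3, Gpx3 and Sod3.

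Gpx3 had a negative log2 FC in all 9 comparisons, without passing the test in any. These comparisons share the same samples, and the sum over all cells contains the cell types, so they are not independent. With 1 sample left out the Gpx3 log2 FC turned to 0.43 in RPE and 0.049 in the type named Pericyte (both without wt/wt replicate 2) and to 0.15 in RPE without ko/ko replicate 1. It ran from −0.75 to −0.28 over all cells, −0.69 to −0.20 in Fibroblast and −0.94 to −0.21 in Fibroblast 2. Over all cells its log2 FC was −0.48 ± 0.28 (SE), with an adjusted p of 0.884. In Fibroblast it was at 106, 213 and 159 CPM in the wt/wt samples and at 108, 81.8 and 163 CPM in the ko/ko samples, and the groups overlapped. Gpx3 in Endothelial was at 51.7, 94.8 and 88.0 against 12.0, 36.5 and 51.8 CPM, where wt/wt replicate 1 lay just under the highest ko/ko sample (log2 FC −1.23 ± 0.43 SE, unadjusted p = 0.014, adjusted p = 0.849). The Endothelial values rest on few molecules, with 59, 43 and 59 Gpx3 UMIs in wt/wt and 5, 17 and 23 in ko/ko.

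In Myeloid, Gpx3 was at 115 and 116 CPM in the wt/wt samples and at 68.1 and 38.1 CPM in the ko/ko samples (log2 FC −1.31 ± 0.33 SE, adjusted p = 0.26), and without ko/ko replicate 3 the Gpx3 log2 FC was −0.70. The Myeloid sums held 68 and 47 Gpx3 UMIs in wt/wt and 12 and 19 in ko/ko. With 2 samples each, every ko/ko value lay below every wt/wt value for 19.0% of all genes in Myeloid, Gpx3 alone of the 7 members tested, and above for 14.7%, Prdx1 alone of the 7, at 206 and 237 against 272 and 248 CPM. In Fibroblast-like, Gpx3 was at 90.2, 130 and 99.7 against 84.6, 52.6 and 84.3 CPM, and the groups did not overlap, 1 of 7 members tested there, where every ko/ko value lay below every wt/wt value for 6.05% of all genes tested. The Gpx3 log2 FC there was −0.41 ± 0.26 (SE), with an adjusted p of 0.969. The Myeloid and Endothelial sums also held fibroblast marker RNA, with all 7 fibroblast markers summing to 1753 to 4853 CPM in wt/wt and 2490 to 4049 CPM in ko/ko Myeloid and to 673 to 1997 and 793 to 1164 CPM in Endothelial, and their part in these Gpx3 values was not tested.

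Gstm1 had a positive log2 FC in the fibroblast types. In Fibroblast it was at 38.8, 36.5 and 36.2 CPM in the wt/wt samples and 47.8, 41.6 and 41.2 CPM in the ko/ko samples (log2 FC 0.22 ± 0.084 SE, unadjusted p = 0.027, adjusted p = 0.544). In Fibroblast 2 Gstm1 was at 81.7, 73.6 and 80.8 against 95.3, 83.4 and 86.7 CPM (log2 FC 0.18), and in Fibroblast proliferating at 32.4, 32.6 and 32.3 against 39.9, 34.7 and 34.9 CPM (0.16). The groups did not overlap in these 3 types. In Fibroblast-like Gstm1 overlapped, at 55.7, 34.2 and 42.0 against 45.2, 72.3 and 39.4 CPM (0.16), as it did in sub-cluster 4, at 40.1, 30.7 and 35.4 against 40.4, 33.3 and 34.2 CPM, and it passed the test in none of the types.

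Sod2 and Nqo1 also had groups that did not overlap in Fibroblast and Fibroblast proliferating. Sod2 in Fibroblast was at 198, 183 and 187 against 204, 232 and 201 CPM in ko/ko (log2 FC 0.16), and in Fibroblast proliferating at 153, 156 and 143 against 156, 183 and 160 CPM (0.14), where wt/wt replicate 2 and ko/ko replicate 1 were both at 156 CPM. Nqo1 in Fibroblast was at 154, 159 and 163 against 173, 173 and 167 CPM (log2 FC 0.11 ± 0.070 SE, adjusted p = 0.916), and in Fibroblast proliferating at 225, 239 and 241 against 263, 267 and 251 CPM (0.14, SE 0.074, adjusted p = 0.878). So 3 of 9 members lay wholly above in each of these 2 types, where this held for 4.57% of all genes in Fibroblast and 4.76% in Fibroblast proliferating. These differences are of at most 0.22 on the log2 scale and none passed the test.

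In Fibroblast 2, Nqo1 went the other way, at 46.1, 54.2 and 42.2 CPM in wt/wt against 39.7, 40.9 and 41.1 CPM in ko/ko (log2 FC −0.21 ± 0.11 SE, adjusted p = 0.887). There 1 of 9 members lay wholly below (Nqo1, beside 6.60% of all genes) and 1 wholly above (Gstm1, beside 4.81%). The genotype difference of Nqo1 was 0.30 lower on the log2 scale in Fibroblast 2 than in Fibroblast (−0.30, SE 0.085, unadjusted p = 0.0037, adjusted p = 0.923 by voom-limma in a fit that held the sample fixed). In that test 0 of 18959 genes passed (0%), with 973 at an unadjusted p under 0.05, and in the same test of RPE against Fibroblast 0 of 19951 passed (0%), with 371 at an unadjusted p under 0.05. Neither edgeR nor DESeq2 was run for these differences.

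Sod3 in Fibroblast 2, the type that carries it, had a log2 FC of −0.51 ± 0.44 (SE), with an adjusted p of 0.887, and its samples overlapped. The Sod3 log2 FC ran from −0.94 without wt/wt replicate 1 to −0.048 without ko/ko replicate 2. Prdx1 in Fibroblast was at 129, 135 and 132 CPM in wt/wt and at 178, 172 and 112 CPM in ko/ko, so that ko/ko replicate 3, the sample of batch 2, was the lowest of all 6 and the other 2 were the highest. The Prdx1 log2 FC was 0.19 with all samples and 0.42 without that replicate (adjusted p = 0.0836). Hmox1 had log2 FCs of 0.23 in Fibroblast, 0.14 in Fibroblast 2 and 0.22 in Fibroblast proliferating, and Txnrd1 of 0.11, 0.03 and 0.13. Across the 9 members the median log2 FC was 0.09 over all cells, 0.11 in Fibroblast, 0.03 in Fibroblast 2 and 0.14 in Fibroblast proliferating, beside medians of all genes between −0.01 and 0.005.

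In RPE the levels of several members did not follow genotype. Hmox1 was at 6257, 2955 and 6436 CPM in wt/wt replicates 1 to 3 and at 6108, 8084 and 1354 CPM in ko/ko replicates 1 to 3. Txnrd1 was at 2347, 1224 and 2020 CPM in the same order against 2268, 2560 and 826 CPM, and Gsta3 at 149.6, 66.0 and 164 against 166, 178 and 29.6 CPM. Samples wt/wt replicate 2 and ko/ko replicate 3 were the lowest of their genotype for all 3 genes. Gpx3 in RPE was the reverse, with its highest values in the same pair, at 16.9, 85.9 and 27.0 against 8.4, 13.5 and 79.1 CPM.

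These 2 samples also held the most RPE cells and the least RPE marker RNA. Sample wt/wt replicate 2 held 539 RPE cells and ko/ko replicate 3 held 575, against 56 to 152 in the other 4. The summed level of the 11 RPE markers was 1098, 511 and 879 CPM in wt/wt and 1066, 1115 and 297 CPM in ko/ko, with Best1 at 0 in 3 samples. Most of this sum was Krt18, a keratin of simple epithelia, at 972, 420 and 739 against 924, 976 and 231 CPM. Of the 11 markers, 8 were lowest of their genotype in the same pair (Krt18, Krt8, Otx2, Mitf, Rlbp1, Ttr, Dct and Rpe65), and Tyrp1, Pmel and Best1, each under 1 CPM in every sample, were not. Otx2 was at 84.0, 71.6 and 103 against 103, 104 and 57.5 CPM. The summed level of 5 proliferation genes was 208, 541 and 240 against 167, 119 and 805 CPM, so it was highest in the same pair. Fibroblast markers (7 of 7 detected) summed to 678, 1215 and 576 CPM in wt/wt and 348, 585 and 534 CPM in ko/ko, so wt/wt replicate 2 was the highest of its genotype and ko/ko replicate 3 was not. Among them Col1a1, at 123, 286 and 163 against 136, 101 and 171 CPM, and Dcn, at 27.3, 93.2 and 36.5 against 10.9, 30.2 and 36.0 CPM, were the highest of their genotype in both samples of the pair. Mgp was not, at 370, 500 and 174 against 77.9, 307 and 158 CPM, with ko/ko replicate 2 the highest of its genotype. The 5 melanocyte markers summed to 4.71 to 23.9 CPM over all samples. The part of this makeup in the levels of Hmox1, Txnrd1, Gsta3 and Gpx3 was not tested. A different mix of RPE cells and a different level of these genes per cell cannot be told apart in these sums.

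**Figure D5:**
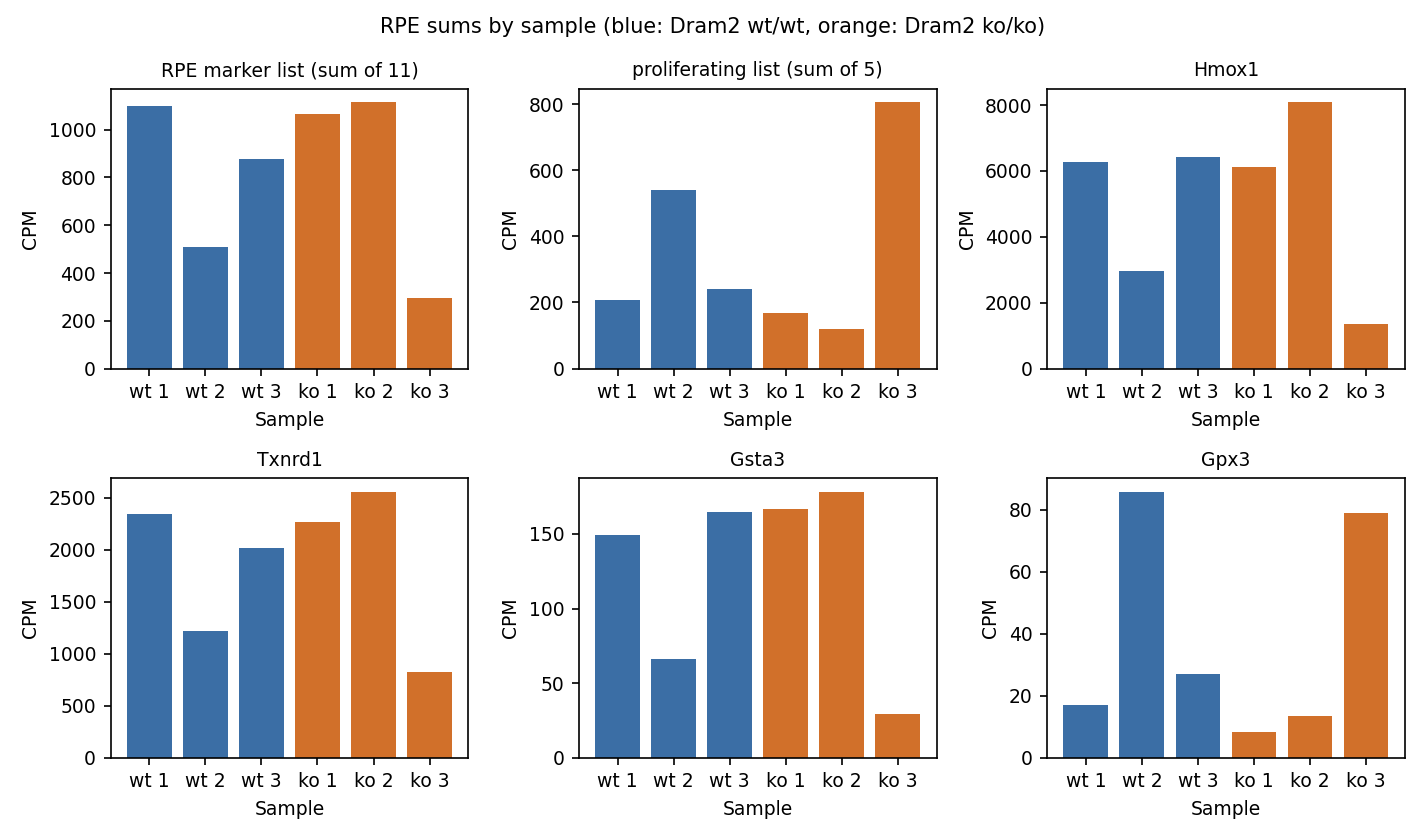
Bars of CPM in the RPE sums of the 6 samples, blue for wt/wt and orange for ko/ko, for the summed RPE markers, the summed proliferation genes, Hmox1, Txnrd1, Gsta3 and Gpx3. Samples wt 2 and ko 3 are low in RPE markers, Hmox1, Txnrd1 and Gsta3 and high in proliferation genes and Gpx3.

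The RPE log2 FCs by genotype had wide errors, with −0.20 for Hmox1 (SE 0.67) and −0.34 for Gsta3 (SE 0.74). Without ko/ko replicate 3 they turned to 0.52 for Hmox1 and 0.61 for Gsta3. Differences of this size between genotypes were not detectable in RPE with these samples. Of the 9 members, 2 had a positive and 7 a negative fold change in RPE, with a median of −0.21 beside 0.006 over all genes. By edgeR and by DESeq2, 5 of the 9 were positive. With batch as a covariate, a term fitted by ko/ko replicate 3 alone, 7 were. The direction of most members in RPE thus depends on the fit and on that sample.

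A wider list of 83 genes of glutathione, thioredoxin, superoxide and NRF2 biology, Gstp1 among them, gave the setting. Like the members, this list was chosen with earlier results of these data known. Of the 82 genes other than Gstp1, 1 was called in any comparison, the metallothionein Mt1, a zinc and copper binding protein, in Fibroblast proliferating. That is 1 of 77 list genes tested there, beside 113 of 18113 genes in all (0.624%), and edgeR called 1 of 77 beside 62 in all (0.342%). All 113 genes called by voom-limma and all 62 called by edgeR there were lower in ko/ko, so the direction of Mt1 was that of every called gene. Mt1 was at 234, 284 and 266 CPM in wt/wt and at 172, 159 and 188 CPM in ko/ko there, with no overlap, and it fell by 0.60 on the log2 scale (SE 0.096, adjusted p = 0.036, between 1.9e-05 and 0.224 over its alternatives). The call was lost without wt/wt replicate 3 (adjusted p = 0.224), wt/wt replicate 2 (0.194) or ko/ko replicate 2 (0.136), with the replicate block (0.113) and with the 5% of cells with most UMIs left out (0.051). Replicate numbers did not pair the samples, so nothing is read from the loss with that block. With 1 sample left out the Mt1 log2 FC stayed between −0.67 and −0.54. Mt1 had log2 FCs of −0.75 in Fibroblast 2 (adjusted p = 0.092), −0.56 in Fibroblast (0.159) and −0.87 in RPE (1.0), and its neighbour Mt2 of −0.71, −0.51 and −0.89, with none called.

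By direction, 24 of the 77 list genes tested in Fibroblast proliferating had a negative log2 FC, beside 51.6% of all genes. It was negative for 23 of 78 in Fibroblast (beside 52.3%), 31 of 77 in Fibroblast 2 (beside 52.2%) and 43 of 76 in RPE (beside 48.9%). In RPE it was negative for 35 of 76 by edgeR and by DESeq2 and for 20 of 76 with batch as a covariate. Outside Fibroblast proliferating 0 were called by voom-limma, while edgeR called 0. DESeq2 called 2 of 81 over all cells (beside 1.69% of all genes), 1 of 78 in Fibroblast (beside 1.61%) and 2 of 77 in Fibroblast 2 (beside 1.13%). An unadjusted p under 0.05 was found for 5 of 81 over all cells (beside 7.01% of all genes), 8 of 78 in Fibroblast (7.18%), 4 of 77 in Fibroblast 2 (6.20%) and 1 of 76 in RPE (4.65%). In the small types it was found for 3 of 62 in Fibroblast-like (5.08%), 4 of 55 in Endothelial (5.24%), 4 of 58 in the type named Pericyte (5.90%) and 6 of 59 in Myeloid (5.94%). Among thioredoxin and peroxiredoxin genes the log2 FC was negative for 3 of 17 in Fibroblast, 3 in Fibroblast 2, 4 in Fibroblast proliferating and 5 in RPE, and for 8 of 15 in Endothelial (beside 50.2% of all genes), with 0 called. Among glutathione S-transferases other than Gstp1 19 were tested in each large fibroblast type, and it was negative for 3 in Fibroblast, for 9 in Fibroblast 2, for 4 in the proliferating type and for 16 of 18 in RPE, also with 0 called. By edgeR and by DESeq2, it was negative for 10 of these 18 in RPE, and with batch as a covariate for 2. Counts of negative log2 FCs for the remaining lists follow in the order Fibroblast, Fibroblast 2, Fibroblast proliferating and RPE. They were 7 of 10, 4 of 9, 3 of 9 and 4 of 9 for glutathione supply. For glutathione peroxidases they were 2, 3, 3 and 2 of 5, and for superoxide dismutases and catalase 2, 3, 4 and 4 of 5. For NRF2 regulators they were 1, 2, 1 and 2 of 7, and for NRF2 targets and metal binding genes 5, 7, 5 and 10 of 15.

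Fold changes of genes that make or recycle glutathione and of other list genes are given here for Fibroblast 2 alone, where voom-limma called 0 of 77 list genes. In Fibroblast 2 the log2 FC was −0.11 for Gclc and 0.06 for Gclm, the subunits of glutamate-cysteine ligase, 0.03 for Gsr, the glutathione reductase, and −0.34 for Slc7a11, the cystine transporter. For the peroxide-removing enzymes it was −0.01 for Gpx1, −0.24 for Gpx4, −0.29 for Cat, 0.02 for Srxn1 and 0.06 for Prdx6, and it was −0.01 for Sod1 and −0.08 for Txn1. The transferases Gsta4, Gstm2 and Mgst1 were at −0.0030, −0.05 and −0.19. Nfe2l2, which encodes NRF2, was at −0.04 and its repressor Keap1 at 0.08.

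Several of these were distributed like the members. Gsta4 was at 1438 CPM in RPE and at 105 CPM or less in each other type, Prdx6 at 1816 CPM in RPE against 694 CPM or less, and Gclm at 950 CPM in RPE. Gclc was highest in Fibroblast 2 at 402.5 CPM. Gpx1 (601 to 1227 CPM), Nfe2l2 (49.9 to 211.5 CPM) and Keap1 (27.6 to 57.6 CPM) had narrower ranges over the 8 types.

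The genes whose pattern was most like each member were found by Pearson's r of log2(CPM + 1) over 46 sums of 1 cell type in 1 sample, among 6161 genes, a description over points that share libraries. The sums hold both genotypes, so the pattern of Gstp1 includes the contrast that led to its choice. For Gstp1 they were Mt1 (0.83), which also had a negative log2 FC in every comparison, Snhg18 (0.79) and Adamtsl5 (0.77). For Gsta3 they were Slc7a8 (0.95), Plekhb2 (0.88) and Angptl7 (0.87). For Sod3 they were Ccl11 (0.91), Alpl (0.90) and Il11 (0.90), and for Sod2 Fam50a (0.86), Vegfb (0.83) and Rnh1 (0.83). Gstm1 was followed by Renbp (0.86), Gsto1 (0.85) and Nudt19 (0.84), and Gpx3 by Ccnd2 (0.84), Carmn (0.78) and Bgn (0.77). Hmox1 was nearest to Slc48a1 (0.87), a haem transporter, Mgst1 (0.86) and Rab11a (0.83), and Txnrd1 to Gsta4 (0.90), Ccl17 (0.88) and Basp1 (0.88). Nqo1 was nearest to Etv4 (0.87), S100a7a (0.85) and Cavin2 (0.84), while Prdx1 had no close partner, with Pak1 (0.67), Clta (0.66) and Lgals3 (0.66).

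The core of the antioxidant response element, TGACNNNGC on either strand, was looked for in the promoter windows of RefSeq (GRCm38.p6), which run from 250 bases before to 50 bases after a start. It occurred in 4071 of 32851 windows (12.4%). Windows were held for 8 of the 10 members, and those of Gsta3, Prdx1 and Txnrd1 (in 1 of its 3 windows) contained it. The matches are shown with the motif in capitals and 10 bases on each side, so that the letters found can be compared. The windows of Nqo1, Gstm1, Gpx3, Sod2 and Gstp1 held no match, and sequence outside the windows was not searched.
Gsta3 (chr1:21240454-21240482, plus strand): aactcaggcaTGACATTGCatttttcttc
Prdx1 (chr4:116685456-116685484, minus strand): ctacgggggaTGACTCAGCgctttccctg
Txnrd1 (chr10:82859104-82859132, minus strand): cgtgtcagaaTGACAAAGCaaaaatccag
A match is a description of the letters and not of binding. Gsta3 and Txnrd1 were highest in RPE and Prdx1 was not, and none of the 3 passed the test between genotypes.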

How the data were processed

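The authors deposited raw UMI counts per gene and cell, made with Cell Ranger 3.1.0 on GRCm38 according to the submitters' processing notes, counting exons only. They also deposited a table of cell types and fibroblast sub-clusters from Seurat clustering integrated over batches. The annotation release and the filters on cells are not given in the sources used here. The 10 members and the wider list were chosen with earlier results of these data known. Gene identifiers were matched to GENCODE symbols (52403 of 52636).

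Counts were summed per sample and cell type with 10 or more cells, filtered with filterByExpr, scaled by TMM (edgeR 4.0.16) and tested in R 4.3.3 with voom-limma, using limma 3.58.1 and no covariates, and p-values were adjusted over all genes by the Benjamini-Hochberg method. No sample was imputed, and Myeloid lacked replicate 1 of both genotypes. Separate animals per sample are not stated, so p-values measure the spread between these samples. Doublets were not called, and an alternative left out the 5% of cells with most UMIs. Cell names are running numbers, so barcodes shared between libraries could not be counted. Shared sequence was measured as 31-base words in the last 400 bases of transcripts. The scripts were tested on simulated data.

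Named genes were the 10 members, 20 set genes of the list, list genes called and the 3 genes most alike to each member among those with a mean of 10 CPM or more and under 5% shared words. Alternatives were edgeR's quasi-likelihood test, DESeq2 1.42.0, other scalings, no filter, batch, the replicate block, a cell filter (500 genes, 20% mitochondrial), summing with sequence-sharing genes and leaving out each sample.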

Additional observations from a re-analysis of the deposited data

How the results depend on the processing

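Under every alternative run, 0 of the 9 members other than Gstp1 were called. For the list of 82 genes, DESeq2 called 2 over all cells, 1 in Fibroblast, 2 in Fibroblast 2 and 2 in Fibroblast proliferating. Batch as a covariate, a term fitted by Dram2 ko/ko replicate 3 alone, gave 1 in Fibroblast (beside 87 of 19886 genes in all) and 2 in Fibroblast proliferating (184 of 18113), no filter on low counts gave 1 in Fibroblast 2 (71 of 29134) and 1 in Myeloid (59 of 18014), and leaving out the 5% of cells with most UMIs gave 0 in Fibroblast proliferating. Leaving out 1 sample at a time gave 0 to 1 in Fibroblast (beside 0 to 234 over all genes), Fibroblast 2 (0 to 121) and Fibroblast-like (0 to 85) and 0 to 2 in Fibroblast proliferating (0 to 290). In Myeloid it left 1 sample in a group, so no counts are given for it. Numbers did not pair the samples (over all cells r was 0.099, −0.43 and 0.028 for same-numbered samples), and with the replicate block 0 list genes were called in Fibroblast proliferating, where calls over all genes went from 113 to 0, and from 33 to 2 in Fibroblast 2. DESeq2 called 381 genes over all cells, 321 in Fibroblast, 168 in Fibroblast 2 and 320 in Fibroblast proliferating. Without Dram2 ko/ko replicate 2, 0 genes were called in Fibroblast 2 and in Fibroblast proliferating.

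Of 848 alternative log2 fold changes, 40 reversed, none of them a called value, and the cause was not tested. In RPE, Gsta3 went to 9.2e-05 (edgeR), 0.016 (DESeq2) and 0.63 (batch), Hmox1 to 0.023, 0.031 and 0.53, Txnrd1 to 0.044, 0.051 and 0.44, Gstm1 to 0.21 (batch), Nqo1 to 0.21 (batch) and Sod3 to 0.19 (replicate block). Sod3 went to −0.052 (batch) and −0.019 (top 5% of cells left out) in Fibroblast and to 0.0076 (DESeq2) in Fibroblast proliferating, and Sod2 to −0.021 (batch) in Fibroblast 2. With 1 sample left out, RPE values ran from −0.90 to 0.61 for Gsta3, −0.42 to 0.20 for Gstm1, −1.85 to 0.43 for Gpx3, −0.087 to 0.42 for Sod2, −0.63 to 0.20 for Nqo1, −0.73 to 0.52 for Hmox1 and −0.37 to 0.44 for Txnrd1. Those of Fibroblast 2 ran from −0.026 to 0.12 for Sod2, −0.0024 to 0.34 for Hmox1, −0.010 to 0.12 for Txnrd1 and −0.050 to 0.31 for Prdx1. Sod3 ran from −0.031 to 0.33 in Fibroblast and −0.23 to 0.26 in Fibroblast proliferating, and Gpx3 from −2.16 to 0.049 in the type named Pericyte. Of 1350 alternative levels, 4 moved by more than 1 SD. Depth limits the small types, where the sums of a sample held 23 to 92 cells in Endothelial and 11 to 32 in Myeloid.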
